A study of Mus musculus with 5 samples.

Results

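The 8 genes examined here, Phox2a, Hand1, Hand2, Gata2, Gata3, Isl1, Mycn and Tbx2, encode transcription factors of the sympathoadrenal lineage, the neural crest lineage from which neuroblastoma arises. They were taken by symbol from a table of 55573 genes, in which each of the 8 symbols was found once. RNA was measured in Neuro-2A (N2A) cells, an established mouse neuroblastoma line, to find mRNAs whose level depends on UPF1, an RNA helicase that is essential for nonsense-mediated mRNA decay (NMD). Control cells were transfected with 60 pmol of a commercial non-targeting siRNA (siCtl, 2 libraries, replicates 1 and 3) and knockdown cells with 60 pmol of an siRNA against Upf1 (siUpf1, 3 libraries, replicates 1, 2 and 3). Both groups were the same line in the same medium and carried no other treatment in the labels. The labels do not say whether libraries came from separate cultures, so p-values measure the spread between these libraries, which may be technical. In RNA from whole cultures, fewer cells of a type and less RNA per cell cannot be told apart.

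In developing sympathetic neurons and chromaffin cells, the homeodomain factor PHOX2A, the bHLH factors HAND1 and HAND2, the zinc-finger factors GATA2 and GATA3 and the LIM-homeodomain factor ISL1 act in a shared network that switches on the genes for noradrenaline synthesis. In neuroblastoma several of these factors bind each other's enhancers as well as their own, an arrangement known as a core regulatory circuit. MYCN, a bHLH-leucine zipper protein of the MYC family, is the oncogene whose amplification marks high-risk neuroblastoma, and the T-box factor TBX2 is a further member of the circuit.

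Upf1 itself fell from 5230 ± 18.1 normalised counts (mean ± SD) in the 2 control libraries to 2449 ± 46.6 in the 3 knockdown libraries, 46.8% of the control level (log2 fold change -1.10, SE 0.0507, DESeq2 adjusted p = 7.27e-101). Libraries held 20402205 to 27717594 assigned reads, and log2 counts of 11898 genes (not independent of each other) correlated at a Pearson's r of 0.996 to 0.997 inside a group and 0.970 to 0.972 across groups. Of 7 further sympathoadrenal markers (Th, Dbh, Ddc, Chga, Chgb, Stmn2 and Prph), every one had at least 83 reads in each library. Markers of other cells were low in sum, though some matched the weaker sympathoadrenal markers. Summed over 8 Schwann cell and neural crest markers the level was 8.81 to 9.80 TPM (reads per transcript length, scaled to the library) in siCtl and 7.31 to 8.70 in siUpf1, over 8 fibroblast and endothelial markers 14.9 to 15.5 and 11.0 to 13.8, and over 8 blood markers 3.20 to 3.25 and 2.63 to 3.33. The Schwann cell factor Sox10 had 0 or 1 read per library, and 2, 1 and 1 of the markers in these lists had no read in any library. In siCtl, however, Erbb3 (mean 7.09 TPM) and Pdgfrb (7.42) were close to Th (7.74) and above Dbh (3.84) and Ddc (2.43). Stmn2 (124), Chga (202), Chgb (277) and Prph (1399) were far higher. The part of the small differences between groups in markers of other cells in the results below was not tested.

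The siRNA is shown because its seed, the 7 bases that pair with short sites in other mRNAs, is also matched in one of the 8 genes. The sense strand, as the labels give it, was found in both of the 2 annotated protein-coding Upf1 transcripts, and the guide strand is its reverse complement. Both are written 5′ to 3′ with bases 2 to 8 in capitals.
Upf1 siRNA, sense strand: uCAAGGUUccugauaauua
Upf1 siRNA, guide strand: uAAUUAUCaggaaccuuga

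Promoter sequences of 300 bases, from 250 bases before to 50 after the annotated start, were taken from RefSeq (GRCm38.p6) for 6 of the 8 genes, with 2 starts for Gata2. The promoter set used here held none for Hand1 or Tbx2. Those of the most strongly upregulated factor (Isl1), of Mycn, of the most abundant factor (Hand2) and of the only factor called lower (Gata2, upstream start) are given below on the strand of the gene. Capitals mark every match, on either strand, to the letters CANNTG (the E-box that bHLH factors bind), CACGTG (the E-box preferred by MYC proteins), GATAA (GATA factors), TAATTA (homeodomain factors) and AGGTGT (T-box factors).
Isl1, chr13:116309639-116309938, minus strand: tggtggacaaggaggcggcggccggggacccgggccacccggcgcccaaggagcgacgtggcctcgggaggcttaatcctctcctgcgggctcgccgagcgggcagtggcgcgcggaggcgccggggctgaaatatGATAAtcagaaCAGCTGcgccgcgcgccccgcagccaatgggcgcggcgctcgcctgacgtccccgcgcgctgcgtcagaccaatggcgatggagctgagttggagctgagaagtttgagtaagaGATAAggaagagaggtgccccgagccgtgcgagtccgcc
Mycn, chr12:12941787-12942086, minus strand: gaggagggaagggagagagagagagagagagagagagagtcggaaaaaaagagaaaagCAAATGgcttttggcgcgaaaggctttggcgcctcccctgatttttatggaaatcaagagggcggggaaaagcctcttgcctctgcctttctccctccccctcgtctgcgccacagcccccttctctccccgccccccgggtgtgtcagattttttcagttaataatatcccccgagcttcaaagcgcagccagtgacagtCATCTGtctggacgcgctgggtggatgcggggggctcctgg
Hand2, chr8:57320733-57321032, plus strand: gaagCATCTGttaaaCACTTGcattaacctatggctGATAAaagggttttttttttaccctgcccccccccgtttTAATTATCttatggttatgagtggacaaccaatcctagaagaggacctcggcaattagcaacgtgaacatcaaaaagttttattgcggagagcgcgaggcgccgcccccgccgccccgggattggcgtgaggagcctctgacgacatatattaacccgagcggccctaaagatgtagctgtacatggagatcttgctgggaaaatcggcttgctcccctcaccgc
Gata2, chr6:88193641-88193940, plus strand: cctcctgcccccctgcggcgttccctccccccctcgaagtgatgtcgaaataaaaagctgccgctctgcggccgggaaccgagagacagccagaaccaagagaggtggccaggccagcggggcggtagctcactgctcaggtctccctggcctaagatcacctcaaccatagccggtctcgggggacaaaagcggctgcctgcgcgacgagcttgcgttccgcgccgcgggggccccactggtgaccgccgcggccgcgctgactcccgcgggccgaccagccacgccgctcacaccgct

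CANNTG was in the promoters of all 6 genes with a sequence and in 6 of their 7 windows, against 72.3% of 32851 promoters of the same length. The exception was the upstream start of Gata2, which held none of the 5 motifs; its other start (chr6:88198414-88198713) held 1 CANNTG. The letters GATAA were in 3 of the 7 windows (Isl1, Hand2 and Phox2a; 25.4% of all promoters) and TAATTA in 1 (Hand2; 5.3%), where it overlapped a GATAA match on the other strand. CACGTG, in 7.2% of all promoters, and AGGTGT, in 13.7%, were in none of the 7. The windows of Isl1 and of upstream Gata2 were rich in G and C (69.0% and 69.3%, against a median of 52.7% over all promoters), and that of Hand2 was not (50.3%). These are matches of letters in one window, not measured binding sites.

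Of the 8 factors, 6 were upregulated on Upf1 knockdown (Isl1, Mycn, Tbx2, Hand2, Gata3 and Phox2a), 1 was slightly lower (Gata2) and 1 did not pass the test (Hand1). A gene was called at a DESeq2 adjusted p-value under 0.05 over all genes. Knockdown moved much of the transcriptome, and these counts must be read against that. Among 15581 genes tested, 43.7% were called, 21.4% higher and 22.3% lower. All 3 siUpf1 libraries lay above both siCtl libraries for 7 of the factors and below them for 1, against 33.8% and 34.7% of all genes tested. The median log2 fold change of the 8 was 0.64 and that of all genes tested was -0.00. The 8 were chosen with earlier results of these data known, so these contrasts with all genes are descriptions only. All 8 had reads and passed the filter on low counts.

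**Figure D1:**
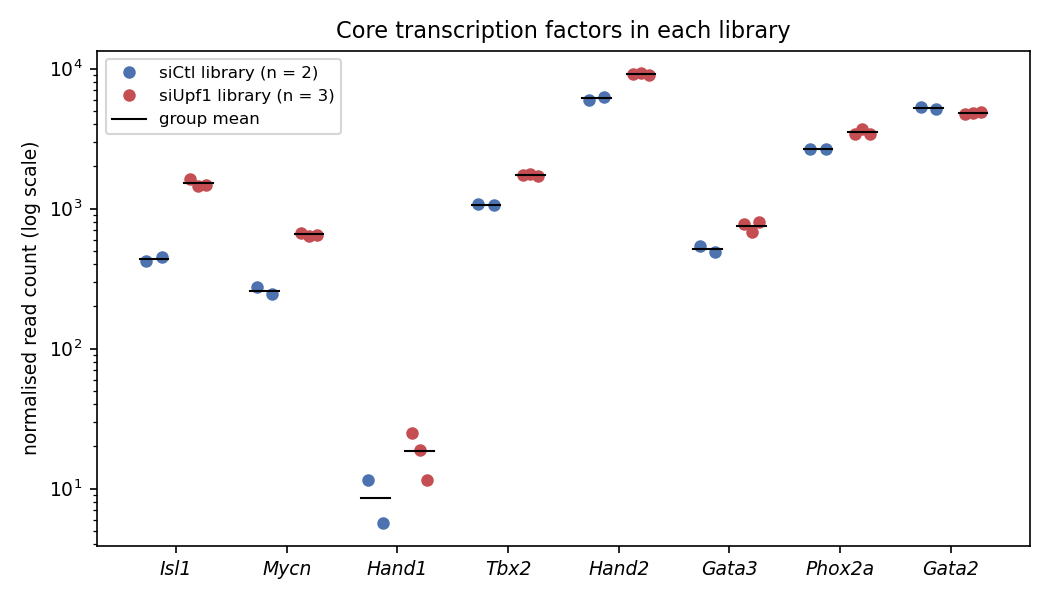
Normalised read count (log scale) of each factor in each of the 5 libraries, with siCtl libraries in blue, siUpf1 libraries in red and group means as black bars, ordered by fold change. The groups separate by the widest margin for Isl1 (419 to 455 against 1447 to 1627) and touch most nearly for Hand1 (5.66 to 11.5 against 11.6 to 24.9) and Gata2 (5155 to 5352 against 4748 to 4882).

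Isl1, which encodes a LIM-homeodomain factor needed for the differentiation of sympathetic and motor neurons, changed most. The gene (ENSMUSG00000042258.13) lies on the minus strand of chromosome 13, 116298281 to 116309689 (GRCm38, as all positions here). It had 419 and 455 normalised read counts in the siCtl libraries and 1627, 1447 and 1487 in siUpf1 replicates 1, 2 and 3. Every siUpf1 library was thus more than 3-fold above either control. The means were 437 ± 25.1 (SD, n = 2) and 1520 ± 94.3 (SD, n = 3), a 3.48-fold increase with a log2 fold change of 1.80 (SE 0.0908, 95% interval 1.62 to 1.98, DESeq2 adjusted p = 6.48e-85). Of all genes tested, 0.494% had a larger log2 fold change.

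Phox2a, the other homeodomain gene of the set, encodes an activator of the dopamine β-hydroxylase promoter and lies on chromosome 7, 101818313 to 101822726 (ENSMUSG00000007946.11, plus strand). Its normalised read counts were 2673 and 2653 in siCtl and 3396, 3691 and 3422 in siUpf1. The controls were nearly equal and all 3 knockdown libraries were above them. Phox2a rose 1.31-fold, from 2663 ± 14.2 to 3503 ± 164 (log2 fold change 0.39, SE 0.0570, 95% interval 0.28 to 0.51, adjusted p = 4.26e-11).

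Hand2, a bHLH factor required for noradrenergic differentiation, was the most abundant of the set. It lies on chromosome 8, 57320983 to 57324633 (ENSMUSG00000038193.4, plus strand). Normalised read counts were 6006 and 6322 in siCtl and 9132, 9274 and 9037 in siUpf1. The knockdown libraries were close together and all higher. Hand2 rose 1.48-fold, from 6164 ± 223 to 9148 ± 119 (log2 fold change 0.57, SE 0.0438, 95% interval 0.48 to 0.65, adjusted p = 8.21e-37).

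Its paralog Hand1, which in the embryo acts in heart, placenta and sympathetic ganglia, was near the limit of detection. This gene (ENSMUSG00000037335.13) is on chromosome 11, 57828705 to 57832818, on the minus strand. It had 11 and 6 raw reads in siCtl and 28, 15 and 13 in siUpf1, or 11.5, 5.66, 24.9, 18.8 and 11.6 normalised read counts in the same order. The lowest knockdown library and the higher control differed by less than 1 count. The 2.16-fold difference between means (8.60 ± 4.15 and 18.4 ± 6.67) did not pass the test (log2 fold change 1.11, SE 0.669, 95% interval -0.20 to 2.42, adjusted p = 0.177), and the interval is too wide to set Hand1 apart from any upregulated member. With edgeR's quasi-likelihood test the same difference was 1.12 with an adjusted p of 0.0496, so the call depends on the tool. The shrunken log2 fold change was 0.31.

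The log2 ratio of Hand1 to Hand2 counts within a library, which needs no scaling between libraries, was -8.96 and -10.01 in siCtl and -8.49, -8.90 and -9.55 in siUpf1, with overlapping groups. Its difference of 0.50 was within the spread (exact two-sided permutation p = 0.4, 0.4 adjusted over 4 paralog pairs; 2 against 3 libraries allow no p under 0.1), and it went to -0.02 without siCtl replicate 3.

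Of the GATA factors, Gata3 rose and Gata2, the more abundant, was slightly lower. Gata3, a zinc-finger factor required in sympathetic neurons and in T cells, had 543 and 492 normalised read counts in siCtl and 778, 676 and 797 in siUpf1. It (ENSMUSG00000015619.10, chromosome 2, 9857078 to 9890034, minus strand) rose 1.45-fold, from 518 ± 35.7 to 751 ± 64.8 (log2 fold change 0.54, SE 0.106, 95% interval 0.33 to 0.75, adjusted p = 1.97e-06). All 3 knockdown libraries were higher, replicate 2 least so.

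Gata2, known from blood stem cells and from sympathetic and other neurons, had 5352 and 5155 in siCtl and 4748, 4851 and 4882 in siUpf1. The gene (ENSMUSG00000015053.14) lies on chromosome 6, 88193891 to 88207032, on the plus strand. All knockdown libraries were below both controls, yet the mean was still 91.9% of the control mean (5254 ± 140 and 4827 ± 70.0; log2 fold change -0.12, SE 0.0470, 95% interval -0.21 to -0.03, adjusted p = 0.0238). This call was fragile: the adjusted p was 0.107 with size factors from total counts, and 0.269, 0.0714, 0.0813 and 0.0611 without siCtl replicate 1, siCtl replicate 3, siUpf1 replicate 1 and siUpf1 replicate 3. The direction was the same under all 13 alternatives.

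The log2 ratio of Gata2 to Gata3, free of any scaling, was 3.30 and 3.39 in siCtl and 2.61, 2.84 and 2.61 in siUpf1. It fell from 3.34 ± 0.0613 to 2.69 ± 0.133, by 0.66 on the log2 scale, with no overlap (exact two-sided permutation p = 0.1, the smallest possible; adjusted 0.133).

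Mycn rose by more than any factor but Isl1 among those called. It (ENSMUSG00000037169.15, chromosome 12, 12936093 to 12941914, minus strand) had 274 and 244 normalised read counts in siCtl and 673, 640 and 649 in siUpf1. The 3 knockdown libraries lay within a narrow range, all more than 2-fold above either control. The means were 259 ± 20.7 and 654 ± 17.2, a 2.53-fold increase (log2 fold change 1.34, SE 0.117, 95% interval 1.11 to 1.57, adjusted p = 1.11e-28), and 1.68% of all genes tested had a larger log2 fold change. Its paralog Myc was the more strongly read gene in these cells and did not pass the test, with 6292 ± 44.1 and 5910 ± 102 (log2 fold change -0.09, SE 0.0442, 95% interval -0.18 to -0.00, adjusted p = 0.0867; -0.0095 with length and GC trends removed).

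The log2 ratio of Mycn to Myc was -4.53 and -4.68 in siCtl and -3.12, -3.19 and -3.21 in siUpf1, a difference of 1.43 (exact two-sided permutation p = 0.1, the smallest possible; adjusted 0.133). Myc still had many times more reads than Mycn after knockdown.

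Tbx2, a T-box repressor that restrains cell cycle inhibitors, had 1071 and 1064 in siCtl and 1743, 1772 and 1714 in siUpf1. Both groups were tight and far apart. The gene (ENSMUSG00000000093.6, chromosome 11, 85832551 to 85841948, plus strand) rose 1.63-fold, from 1068 ± 5.03 to 1743 ± 29.0 (log2 fold change 0.71, SE 0.0695, 95% interval 0.57 to 0.84, adjusted p = 7.06e-23). Of all genes tested, 8.91% had a larger log2 fold change than Tbx2, 12.7% than Hand2, 13.7% than Gata3, 20.2% than Phox2a and 61.8% than Gata2. The upregulated factors thus ranged from the far end of the distribution (Isl1, Mycn) to changes that many genes exceeded (Phox2a).

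**Figure D2:**
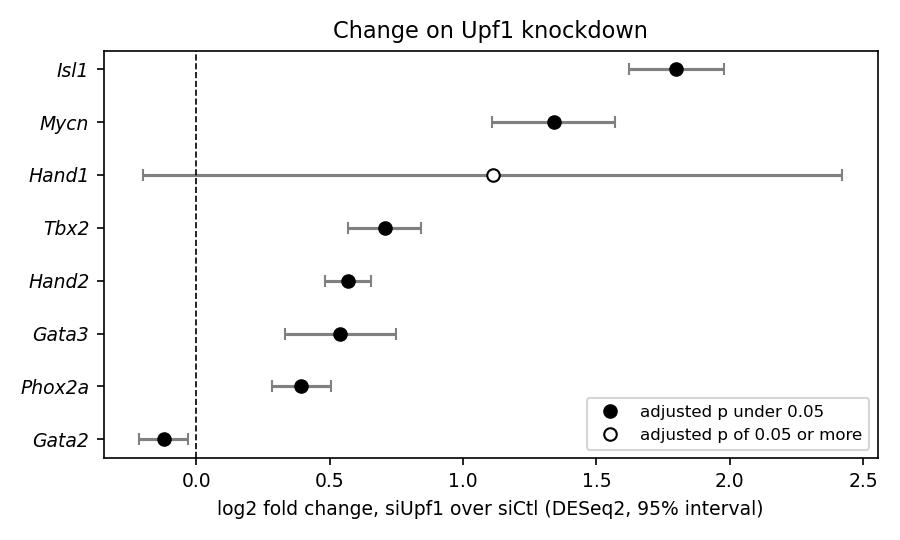
Log2 fold change of each factor, siUpf1 over siCtl, from DESeq2 over 2 and 3 libraries, with 95% intervals and filled points where the adjusted p was under 0.05. The intervals of Isl1 (1.62 to 1.98) and Mycn (1.11 to 1.57) do not reach those of Tbx2, Hand2, Gata3 and Phox2a, which lie between 0.28 and 0.84, and that of Hand1 (-0.20 to 2.42) crosses 0.

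To compare levels between genes, counts were divided by the length of the union of annotated exons and expressed as TPM. In siCtl the order was Hand2 (291 ± 21.9 TPM), Phox2a (145 ± 4.91), Gata2 (108 ± 1.36), Tbx2 (32.6 ± 1.13), Gata3 (14.4 ± 0.430), Isl1 (12.2 ± 1.18), Mycn (8.70 ± 0.354) and Hand1 (0.472 ± 0.212). No neighbours in this order overlapped between their 2 libraries, but Gata3 (14.1 and 14.7) and Isl1 (11.4 and 13.1) were close. Hand2 was among the most abundant mRNAs, with 2.10% of tested genes above it, whereas 51.7% were above Isl1, 58.2% above Mycn and 93.6% above Hand1.

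In siUpf1 the levels were 426 ± 39.1 TPM for Hand2, 188 ± 11.2 for Phox2a, 97.9 ± 8.68 for Gata2, 52.6 ± 4.83 for Tbx2, 42.2 ± 6.72 for Isl1, 21.8 ± 2.71 for Mycn, 20.8 ± 3.55 for Gata3 and 1.02 ± 0.437 for Hand1. Isl1 and Mycn had moved above Gata3. Mycn (19.1 to 24.5) and Gata3 (16.7 to 23.5) did not differ beyond their spread, and the ranges of Tbx2 (48.1 to 57.7) and Isl1 (36.0 to 49.3) overlapped although Tbx2 was higher within each library. The positions of Isl1 depend on the length used. With the longest annotated transcript, Isl1 (15.5 TPM) was already above Gata3 (14.3) in siCtl, and above Tbx2 (54.2 and 43.0) in siUpf1. The summed level of the 8 factors was 591 to 633 TPM in siCtl and 776 to 929 in siUpf1.

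**Figure D3:**
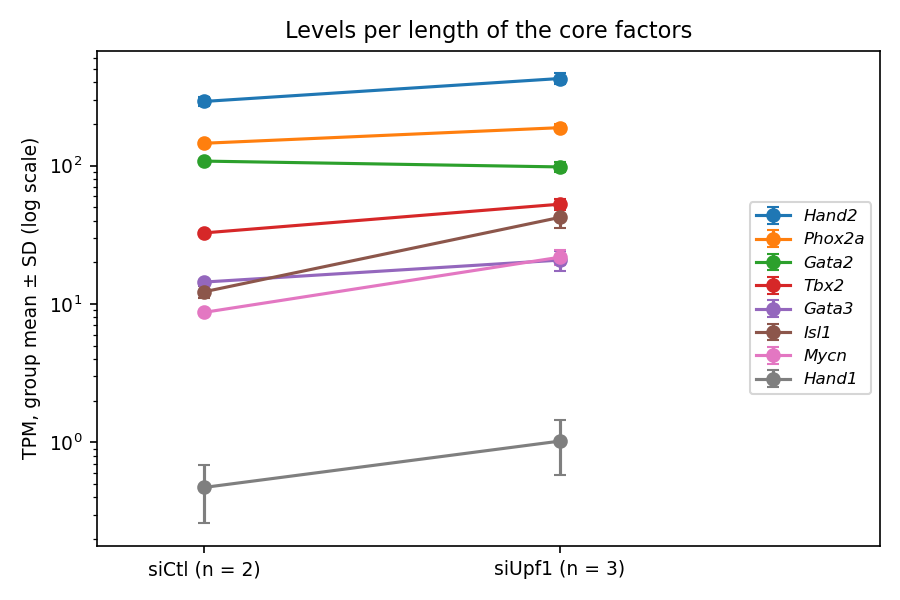
Level of each factor in TPM (log scale, length as the union of exons), as group mean ± SD in siCtl (n = 2) and siUpf1 (n = 3). The lines of Isl1 (12.2 to 42.2 TPM) and Mycn (8.70 to 21.8 TPM) cross that of Gata3 (14.4 to 20.8 TPM), and that of Gata2 falls slightly.

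Genes that overlapped a factor or lay within 10 kb of it were examined next, 13 in all, of which 8 were tested. Counting was strand-specific. None lay within 10 kb of Isl1 or Hand1, and the only one near Mycn was a pseudogene with no reads. Around Hand2, the opposite-strand lncRNA Hand2os1 overlaps the gene and rose from 1644 ± 99.6 to 2392 ± 90.4 normalised read counts (log2 fold change 0.54, SE 0.0659, adjusted p = 2.65e-15), close to the 0.57 of Hand2. Further away, the lncRNA 5033428I22Rik, 7485 nt from Hand2 on the same strand, rose from 981 ± 13.3 to 1943 ± 309 (0.99, SE 0.167, adjusted p = 2.40e-08), whereas Gm34030, 7059 nt away on the other strand, had a log2 fold change of 0.01 (SE 0.172, adjusted p = 0.981).

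Within the span of Gata3, the opposite-strand gene 4930412O13Rik rose from 112 ± 17.0 to 190 ± 16.8 (log2 fold change 0.77, SE 0.198, adjusted p = 0.000373), with an adjusted p of 0.052 without siCtl replicate 1. Beside Tbx2, the lncRNA 2610027K06Rik begins 328 nt away on the other strand and rose from 28.3 ± 1.41 to 60.2 ± 11.7 (1.09, or 0.62 when shrunken, SE 0.363, adjusted p = 0.00789), a call lost without siCtl replicate 1, siCtl replicate 3 or siUpf1 replicate 3 (adjusted p = 0.0907, 0.0729 and 0.0861). Bcas3, 6493 nt from Tbx2 on the same strand, fell from 271 ± 22.3 to 186 ± 6.31 (-0.54, SE 0.160, adjusted p = 0.00208; 0.106 without siCtl replicate 1). Inppl1, whose end overlaps that of Phox2a on the opposite strand, had 3615 ± 29.6 and 3785 ± 52.5 (0.07, SE 0.0498, adjusted p = 0.301). Beside Gata2, Gm38708 had a log2 fold change of 0.37 (SE 0.249, adjusted p = 0.231). The other genes had at most 1 read per library.

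**Figure D4:**
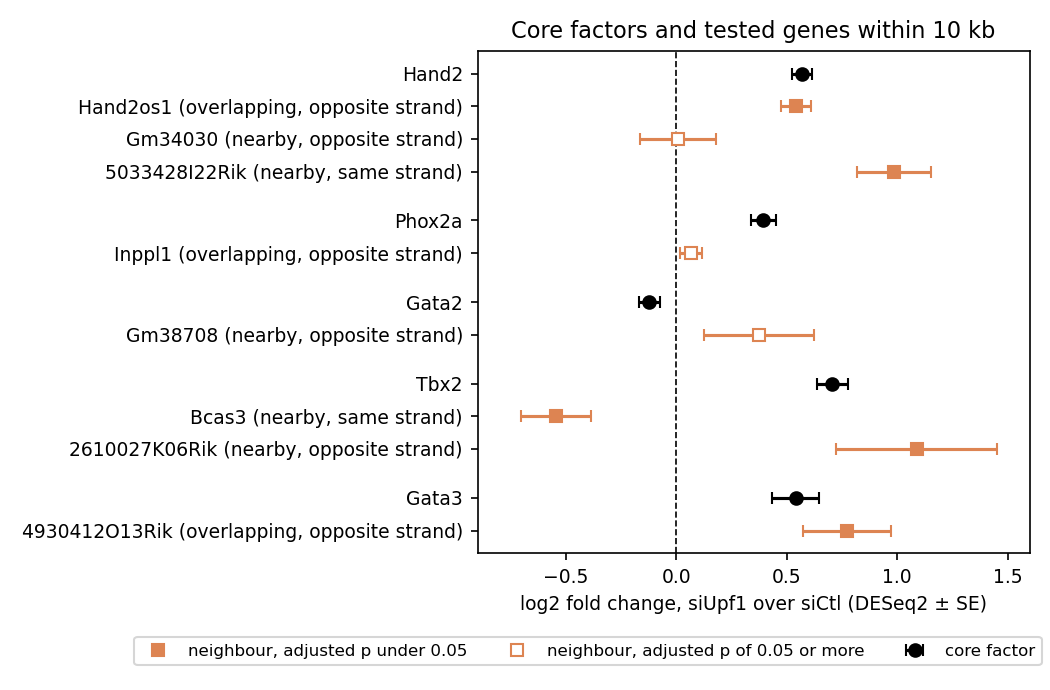
Log2 fold change ± SE (DESeq2) of 5 factors, as black circles, and of the tested genes that overlap them or lie within 10 kb, as orange squares that are filled where the adjusted p was under 0.05. Hand2os1 (0.54) lies beside Hand2 (0.57), while Bcas3 (-0.54) lies on the other side of 0 from Tbx2 (0.71).

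The factors' mRNAs were then described by features that are known to bear on NMD. An exon junction well after the stop codon is the textbook mark of an NMD substrate. A junction at any distance after the stop codon was present in 0 of the 8 representative mRNAs (4.09% of 12579 tested mRNAs). A transcript annotated as an NMD isoform was present for 0 of the 8 genes (28.5%). Their 3′ untranslated regions (UTRs) were between 581 nt (Phox2a) and 1536 nt (Gata2), around the median of 994 nt over all, with 1199 nt for Isl1 and 913 nt for Mycn. The 5′ UTRs of all 8 exceeded the median of 180 nt, from 185 nt in Phox2a, which is close to it, to 924 nt in Hand2. An open reading frame within the 5′ UTR, which can direct an mRNA to NMD, was present in 6 of 8, against 44.8% of all. That share was not matched for the length of the 5′ UTR. Start codons with an in-frame stop there numbered 5 in Hand2, 2 each in Gata2 and Tbx2 and 1 each in Hand1, Gata3 and Mycn. Start codons that share a stop were counted separately. Isl1, with the largest change, had none, and neither had Phox2a. Over all mRNAs the median log2 fold change was 0.01 with such a frame and -0.05 without.

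The motif AUUUA, found in unstable mRNAs, was in the 3′ UTR of all 8 (1 to 6 copies; 66.0% of all). Of the siRNA seeds printed above, that of the guide strand had 1 site (GATAATT) in the 3′ UTR of Isl1 and none in the other 7 (7.70% of all), and that of the sense strand (AACCTTG) had none in any (9.90%). Over all mRNAs, those with a guide site had a median log2 fold change of 0.00 and those without -0.03. These values cover the seeds of the Upf1 siRNA, not those of the control siRNA. The letters GCAGTAC, counted in the same way, were in the 3′ UTR of none of the 8 (5.1% of all). With them the median log2 fold change over all mRNAs was 0.23, and without them -0.03. The cause of that difference was not tested.

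Beside the counts of the lists that follow stands the share of all genes tested, 21.4% called higher and 22.3% called lower. The lists, too, were chosen with earlier results of these data known. Among 22 further factors of the sympathoadrenal and neuroblastoma circuit, 17 were tested, 10 rose (58.8%), 1 fell (5.88%) and 6 did not pass the test, with a median log2 fold change of 0.71. Those that rose included Hey1, a Notch-responsive bHLH repressor (165 ± 7.41 to 414 ± 16.5; log2 fold change 1.33, SE 0.144, adjusted p = 5.21e-19), and Tfap2b, an AP-2 factor of the neural crest (73.1 ± 1.93 to 139 ± 6.48; 0.93, SE 0.228, adjusted p = 0.000178). The LIM-only gene Lmo1 fell by 0.18 on the log2 scale (SE 0.0668, adjusted p = 0.0215), a call lost without either siCtl replicate or without siUpf1 replicate 1 or 3 (adjusted p = 0.0990, 0.188, 0.112 and 0.145). With the trends of length and GC content removed, its log2 fold change was -0.095 (adjusted p = 0.187).

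Of 18 cofactors of LIM, GATA and bHLH proteins, 17 were tested, and 7 rose (41.2%), 2 fell (11.8%) and 8 did not pass (median 0.22). The single-stranded DNA-binding proteins Ssbp4 (log2 fold change 0.83, SE 0.0873, adjusted p = 3.79e-20) and Ssbp2 (0.75, SE 0.0599, adjusted p = 4.69e-34), which stabilise LIM complexes, and the E protein Tcf4 (0.71, SE 0.0554, adjusted p = 1.11e-35) rose most among those with at least 100 mean counts. Tal1, a bHLH partner of GATA and LMO proteins, was called lower at -0.25 (adjusted p = 0.0487), which was lost without any one of the 5 libraries (adjusted p from 0.0835 to 0.218). The other cofactor called lower was the related bHLH gene Lyl1, named after its values were seen, with 121 ± 17.6 and 54.9 ± 2.49 normalised counts (log2 fold change -1.15, SE 0.261, adjusted p = 4.63e-05).

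Of the MYC network and regulators of MYCN protein, 19 of 20 genes were tested, 5 rose (26.3%), 6 fell (31.6%) and 8 did not pass, with a median of 0.03. These shares are not far from those of all genes tested. The MAX-binding MYC antagonists did not move together. Of these, 3 rose, Mxd3 (0.63, SE 0.122, adjusted p = 1.29e-06), Mxd1 (0.44, SE 0.145, adjusted p = 0.00666) and Mxi1 (0.27, SE 0.0791, adjusted p = 0.00188). Mxd1 was lost without siCtl replicate 1 or 3 (adjusted p = 0.0899 and 0.0777) and Mxi1 without siCtl replicate 3 (0.130). Mnt, of the same class, fell (-0.20, SE 0.0637, adjusted p = 0.00474), Mxd4 did not pass (-0.09, adjusted p = 0.393), and their shared partner Max fell (-0.14, SE 0.0556, adjusted p = 0.0319); these 3 were named after their values were seen. Mnt was lost without siCtl replicate 1 or 3 (adjusted p = 0.0653 and 0.0862) and Max without any one of the 5 libraries (0.0668 to 0.336). The others called higher were Zbtb17 (0.20) and Fbxw7 (0.20), named after their values were seen; both were lost without siCtl replicate 1, siCtl replicate 3 or siUpf1 replicate 3 (adjusted p from 0.0638 to 0.270), and Fbxw7 also without siUpf1 replicate 1 (0.0863). The lowest values were those of the kinases Aurka (-0.52, SE 0.0671, adjusted p = 1.62e-13) and Plk1 (-0.32, SE 0.0622, adjusted p = 1.10e-06), both known to stabilise MYCN protein, and the MYC cofactor Trrap (-0.31, SE 0.0465, adjusted p = 4.05e-10). Without siCtl replicate 1, siCtl replicate 3 or siUpf1 replicate 3 the count of higher genes in this list was 2, 1 and 3, and without siCtl replicate 3 that of lower genes was 3.

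Among 22 genes of catecholaminergic and sympathoadrenal identity, 19 were tested, 11 rose (57.9%), 2 fell (10.5%) and 6 did not pass (median 0.44). The enzymes of noradrenaline synthesis differed among themselves. Dbh, dopamine β-hydroxylase, rose from 93.0 ± 8.53 to 286 ± 33.0 normalised read counts (log2 fold change 1.62, SE 0.187, adjusted p = 8.55e-17) and Ddc, aromatic amino acid decarboxylase, from 98.1 ± 21.3 to 239 ± 12.7 (1.29, SE 0.193, adjusted p = 1.99e-10). The rate-limiting enzyme Th had a log2 fold change of 0.30 that did not pass (adjusted p = 0.163, but 0.0389 in edgeR; like the other genes of this paragraph with no SE, it is named because of its role or direction, after its values were seen). The neurotrophin receptor Ngfr rose from 3653 ± 138 to 8411 ± 125 (1.20, SE 0.0464, adjusted p = 2.55e-145). The vesicular monoamine transporters went in opposite directions, with Slc18a2 at 1.20 (adjusted p = 1.83e-57) and Slc18a1 at -1.66 (adjusted p = 4.09e-06; -1.02 when shrunken). The other gene called lower was Stmn2 (-0.16, SE 0.0484, adjusted p = 0.00265; 0.0621 without siCtl replicate 1).

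Of 7 cholinergic genes, 4 were tested and 1 rose, the acetylcholinesterase gene Ache (0.38, SE 0.113, adjusted p = 0.00254; 0.0775 without siCtl replicate 3), with a median of -0.07. Factors of the mesenchymal neuroblastoma state, the alternative to the adrenergic state, had a median below 0. Of 24 genes, 16 were tested, 3 rose (18.8%), 6 fell (37.5%) and 7 did not pass (median -0.32). Tead1 (0.70, SE 0.0567), Jun (0.48, SE 0.0587) and Fosl2 (0.26, SE 0.0696) rose, while Irf1 (-0.74, SE 0.0944), Wwtr1 (-0.42, SE 0.0769) and the intermediate filament gene Vim (-0.32, SE 0.0406) were the 3 with the lowest values among those called with at least 100 mean counts (adjusted p at most 0.000616 for all 6). The AP-1 gene Fosl1, weakly read and named after its values were seen, had 40 and 27 reads in siCtl and 3, 1 and 5 in siUpf1 (-3.53, SE 0.738, adjusted p = 8.60e-06; -0.95 when shrunken). Of the markers of other cells, none was called in the Schwann cell and neural crest list (3 tested) or the blood list (1 tested), and Pecam1 (-0.78, adjusted p = 0.000132) and Pdgfra (-0.47, adjusted p = 0.0247) were called lower among 6 fibroblast and endothelial markers tested. Pdgfra was lost without any one of the 5 libraries (adjusted p from 0.0513 to 0.211).

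**Figure D5:**
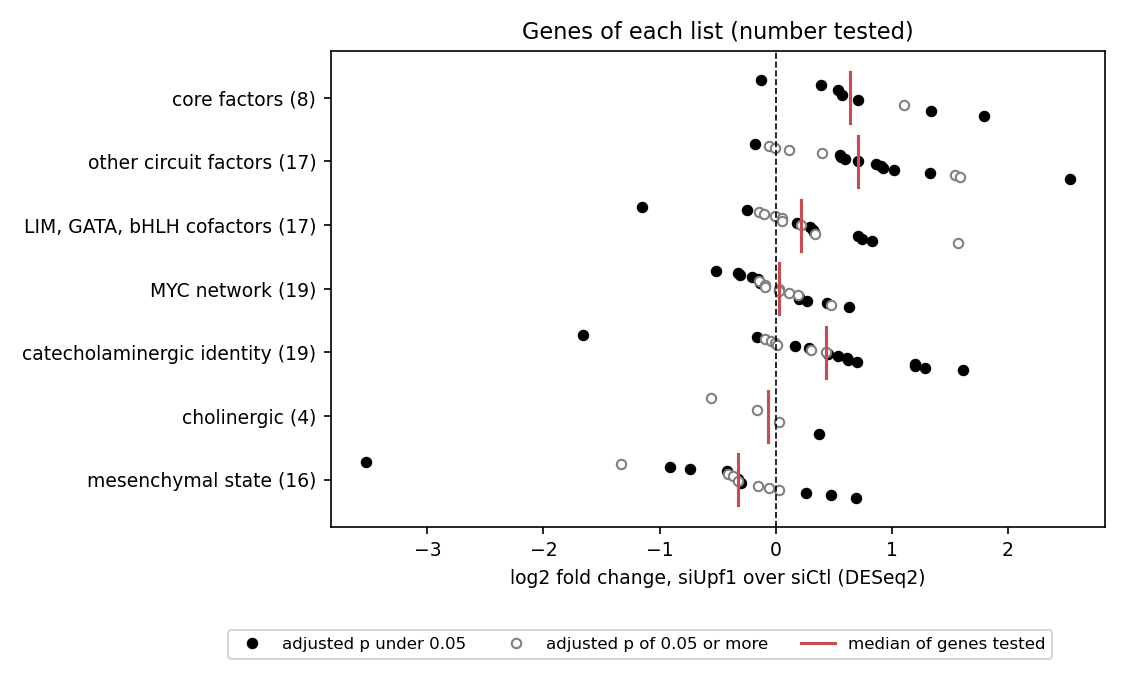
Log2 fold change (DESeq2, siUpf1 over siCtl) of each tested gene, with one row of points per list, filled where the adjusted p was under 0.05, and a red bar at the list's median. The medians of the core factors (0.64) and the other circuit factors (0.71) lie to the right of 0 and that of the mesenchymal factors (-0.32) to the left, with points on both sides in most lists.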

How the data were processed

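The deposited table gives whole-number read counts for each gene, which the authors made from strand-specific poly(A) libraries. Per the labels and the study's methods, reads were demultiplexed with bcl2fastq, trimmed with fastp, mapped to GRCm38.p6 with STAR in two-pass mode and counted on the reverse strand of exons with featureCounts. The submitters' processing notes give the versions as bcl2fastq 2.19.0, STAR 2.7.0f and Subread 1.6.4, and the study's methods name another version of bcl2fastq and a further one of STAR. The GENCODE release is given as M22 or M25. Counts were not normalised and replicates not pooled. PCR duplicates are not marked, so errors from counting alone are a minimum, and genes at 3 reads or fewer are near the floor.

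Every value here was computed from those counts. Of 55573 genes, 28121 had a read. siUpf1 was compared with siCtl over all 5 libraries (20402205 to 27717594 reads) by DESeq2's Wald test (1.42.0, R 4.3.3) (size factors by the median of ratios, independent filtering), with Benjamini-Hochberg adjustment over all genes and calls under 0.05. edgeR 4.0.16, other size factors, other filters, shrunken fold changes, a replicate block, a length and GC correction (mgcv 1.9.3) and the omission of each library were alternatives. Log2 ratios of paralogs (0.5 added to counts) were compared by exact permutation. Confidence intervals are at 95%. Positions, exon lengths and transcript features came from GENCODE M21 (same build; 99.7% of identifiers matched), with 1 representative transcript per gene, and promoters from RefSeq. Scripts were tested on simulated data.

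The 8 genes and the lists were chosen with earlier results of these data known. Named were the 8 genes, Upf1, neighbours within 10 kb, paralogs and, per list, at most 3 called genes per direction averaging at least 100 normalised counts. Some genes of the lists, and 1 of the paralog pairs, are not reported here. No list was tested as a set.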

Additional observations from a re-analysis of the deposited data

How the results depend on the processing

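The calls and directions of Isl1, Mycn, Tbx2, Hand2, Gata3 and Phox2a were the same under all 13 alternatives each. Of 104 alternative values for the 8 factors, 6 (all Gata2) lost the call, 1 (Hand1) gained it and 0 reversed; 5 of the other 97, all of Hand1 (the replicate block and 4 omissions of a library), had no adjusted p. Hand1 had a log2 fold change of 1.12 in edgeR, 0.31 when shrunken, and 0.67 to 1.70 with a library left out. Gata2 had -0.10 with size factors from total counts, -0.13 with the replicate block and -0.15 to -0.10 with a library left out. Hand1/Hand2 reversed without siCtl replicate 3 (-0.020; range -0.020 to 1.03). Gm34030 reversed in sign with TMM (-0.0025) and without siCtl replicate 3 or siUpf1 replicate 3 (-0.033 to 0.040 with a library left out), never called.

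The replicate block called 1964 genes higher and 1971 lower and kept 57.6% of the calls. Replicate 2 had only a siUpf1 library, so with the block that library did not inform the comparison, and little was left to estimate the spread. Deviations of same-numbered libraries from their group means did not go together (correlations -0.0861 and -0.0748). The deviations of the 2 siCtl libraries mirror each other, so these values cannot decide whether the numbers pair libraries. With the block the counts were 0 lower for the core factors, 0 lower for the other circuit factors, 4 higher and 1 lower for cofactors, 2 and 3 for the MYC network, 1 lower for catecholaminergic genes, 0 higher for cholinergic genes and 1 lower for fibroblast and endothelial markers. The lower count was 0 for the core factors and 1 for cofactors with total counts, 1 for cofactors with no filter and 0 for other circuit factors with length and GC removed. edgeR called 8392 genes, with 1 cholinergic gene lower and 1 fibroblast or endothelial marker higher.

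With each library left out, 2387 to 2949 genes were called higher and 2371 to 3125 lower. The lower counts were 0 to 1 (core factors), 0 to 1 (other circuit factors), 1 to 1 (cofactors), 3 to 5 (MYC network), 1 to 2 (catecholaminergic) and 1 to 1 (fibroblast and endothelium), and the higher counts 1 to 6 (MYC network) and 0 to 1 (cholinergic). When 1 siCtl library remained, it was assumed to vary like the siUpf1 group. The limits are the 2 siCtl libraries and, for Hand1, 6 to 28 reads. No setting moved the median of all genes by over 0.1. List medians lay on both sides of 0 for the MYC network (-0.098 to 0.053) and the cholinergic genes (-0.20 to 0.068). For 47 other genes, 546 of 608 alternative values kept call and direction, 58 lost the call and 1 (Th in edgeR) gained it. The cause of these changes was not tested.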
